A study of Mus musculus with 4 samples.

Results

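NRF2, glutathione and antioxidant genes are described here in mouse Th2 cells cultured with or without the small molecule SH-2251. The set holds 41 genes, chosen by name for their known function and not by a limit on their values: the transcription factor NRF2 (Nfe2l2) with its inhibitor and partners, the enzymes of glutathione synthesis and reduction, the thioredoxin and peroxiredoxin genes, the NADPH-producing enzymes, the haem and iron genes, the glutathione transferases and an exporter, the superoxide- and peroxide-removing enzymes, and 3 further targets (Nqo1, Osgin1 and Ephx1). All 41 genes had a named probe, out of 18539 genes named on the arrays. Of them, 39 were well above background on at least 1 array and 38 on all 4. Gsta4 and Mgst1, a soluble and a membrane-bound glutathione transferase, could not be told from background on any of the arrays and have no values below.

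NRF2 is held in the cytoplasm and sent for degradation by Keap1, whose cysteines react with oxidants and electrophiles. When Keap1 is modified, NRF2 accumulates, enters the nucleus, pairs with a small Maf protein (Maff, Mafg or Mafk) and binds the antioxidant response element in front of its target genes. These targets make and recycle glutathione and reduced thioredoxin, supply NADPH, break down haem, store iron and clear reactive compounds, and activated T cells draw on glutathione as their metabolism increases.

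Splenic CD4 T cells of female C57BL/6J mice were isolated by magnetic sorting, and their age is not in the labels. In all 4 groups the cells were activated through the T cell receptor and CD28 for 2 days with IL-2 and IL-4, and then kept for 3 more days in these cytokines, which drives Th2 differentiation. SH-2251 was absent (control) or present throughout, at a label concentration of 1 µM in the first phase and 1 mM in the second; the methods of the study name a lower usual concentration and naive CD4 T cells, and these differences between the sources could not be settled here. Cells of both cultures were then left resting or restimulated with immobilized anti-TCR-β for 4 h, and each of the 4 groups was measured once, on a single-dye Agilent array, with no replicate and nothing to say whether mice were pooled.

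Each level below is the log2 of a probe's processed intensity minus the 75th percentile of its own array, so that 0 is the brightness of a fairly bright probe and a difference of 1 is a 2-fold difference. The technical SD given with each difference was derived from the signal error that the scanner software estimates, and covers error within the arrays only; it was 0.20 (log2) for most of the genes. With 1 array per group no difference could be tested, and it is the number of arrays that sets the precision. In such bulk RNA, fewer cells of a type and less RNA per cell cannot be told apart. Apart from the marker sums below and the choice of a gene's brightest probe, levels of different probes were not set against each other.

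All 4 arrays were on 1 slide, between 56.0% and 56.7% of the probes on each were well above background, and no spot was saturated. The T cell markers named on the arrays (Cd3e, Cd3g, Cd4 and Cd28) were all measured, with a summed signal, relative to the 75th percentile, of 31.4 to 34.0 in the 4 groups. The Th2 markers Gata3, Il4, Il5 and Il13 were all measured too, with sums of 61.6 to 70.2 at rest and 332 to 446 after restimulation. These sums came mainly from Gata3 and Il4, which differed with SH-2251 by between -0.23 and -0.03. In restimulated control cells, however, Il5 gave 73.6 of the sum, more than Gata3 at 58.3. In restimulated SH-2251 cells Il5 gave 9.15 and Gata3 57.0. Il5 was lower with SH-2251 by 3.86 at rest and 3.01 after restimulation, and Il13 by 1.32 and 0.57. The B cell list, 6 of 8 of which were measured, summed to 12.3 to 15.3 on 3 arrays and 25.9 in restimulated SH-2251 cells, with the defining genes Pax5 and Blk not well above background. Of the myeloid list, 4 of 8 were measured, with sums of 157 to 247 that came mainly from Ly6c2, a gene T cells also express, while Adgre1 was measured at levels of 1.20 to 1.51 and Lyz2, Itgam and Fcgr1 were not well above background. Of the NK and CD8 T cell list, 4 of 8 were measured, summing to 2.00 to 2.12 at rest and 4.19 to 4.65 after restimulation, mainly from Nkg7, and Ncr1, Klrb1c and Klrk1 were not well above background. Of the red cell list, 3 of 7 were measured, and Epb42 could not be told from background on any array.

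With SH-2251, a small number of the antioxidant genes were higher in both states, and they included Nfe2l2 itself. Nqo1, a quinone-reducing enzyme and a widely used readout of NRF2 activity, and Gclm, the modifier subunit of the enzyme that limits glutathione synthesis, were at least 2-fold higher with SH-2251 whether the cells were resting or restimulated. Osgin1, a stress-response gene also known as an NRF2 target, went the other way and was lower by more than 2 log2 units in both states. In the resting cells 2 genes of the set were at least 2-fold higher (Nqo1 and Gclm), against 2.26% of the 12685 genes compared, and 1 was at least 2-fold lower (Osgin1), against 2.90%. In the restimulated cells 3 were at least 2-fold higher (Nqo1, Gclm and Ephx1), against 2.65% of 12624 genes, and 1 was at least 2-fold lower (Osgin1), against 2.78%. Cd8a, a marker of another T cell lineage, was also higher with SH-2251, by 1.45 at rest and 0.97 after restimulation, and Eomes, detected on the SH-2251 arrays alone, by at least 0.61 and 0.38. The part of such cells in these differences was not tested.

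The set as a whole did not lie on one side. Its median difference in resting cells was -0.031 (log2), beside -0.055 for all genes compared, and the median of the set lay between -0.031 and 0.088 under the other settings tried. In restimulated cells the median was 0.199, beside -0.063 for all genes, with a range of 0.153 to 0.243 under the other settings. In resting cells 17 of 39 genes of the set were above 0 (42.5% of all genes were), and in restimulated cells 24 of 39 were (42.1% of all genes). At a limit of 1.5-fold, 4 genes were higher in resting cells (6.12% of all genes) and 9 in restimulated cells (6.90% of all genes), while Osgin1 was the single gene of the set lower by that much in either state (7.45% and 7.15% of all genes). The 4 genes at least 1.5-fold higher in both states were Nfe2l2, Nqo1, Hmox1 and Gclm, beside 3.70% of all genes compared in both, and Osgin1 was the 1 gene lower by that much in both, beside 3.79%. At 2-fold in both states 2 genes were higher (1.24% of all genes) and 1 lower (1.37% of all genes), and 17 of 39 genes were above 0 in both states (30.7% of all genes).

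Counted against the technical error, 6 genes of the set were more than 2 technical SDs above 0 in resting cells, Nfe2l2, Nqo1, Hmox1, Gclm, Prdx1 and Ephx1, beside 8.18% of all genes, and 3 were that far below, Prdx5, Gpx1 and Osgin1, beside 10.5%. In restimulated cells 12 were above, those 6 with Gclc, Txnrd1, G6pdx, Me1, Ftl1 and Mgst2, beside 8.94% of all genes, and 2 were below, Prdx5 and Osgin1, beside 9.99%. The added genes of the restimulated cells came from glutathione synthesis, thioredoxin reduction, NADPH supply, iron storage and the transferases. All of these added genes were above 0 at rest too. Gclc, at 0.4055 there with a technical SD of 0.2041, fell just short of the limit.

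**Figure D1:**
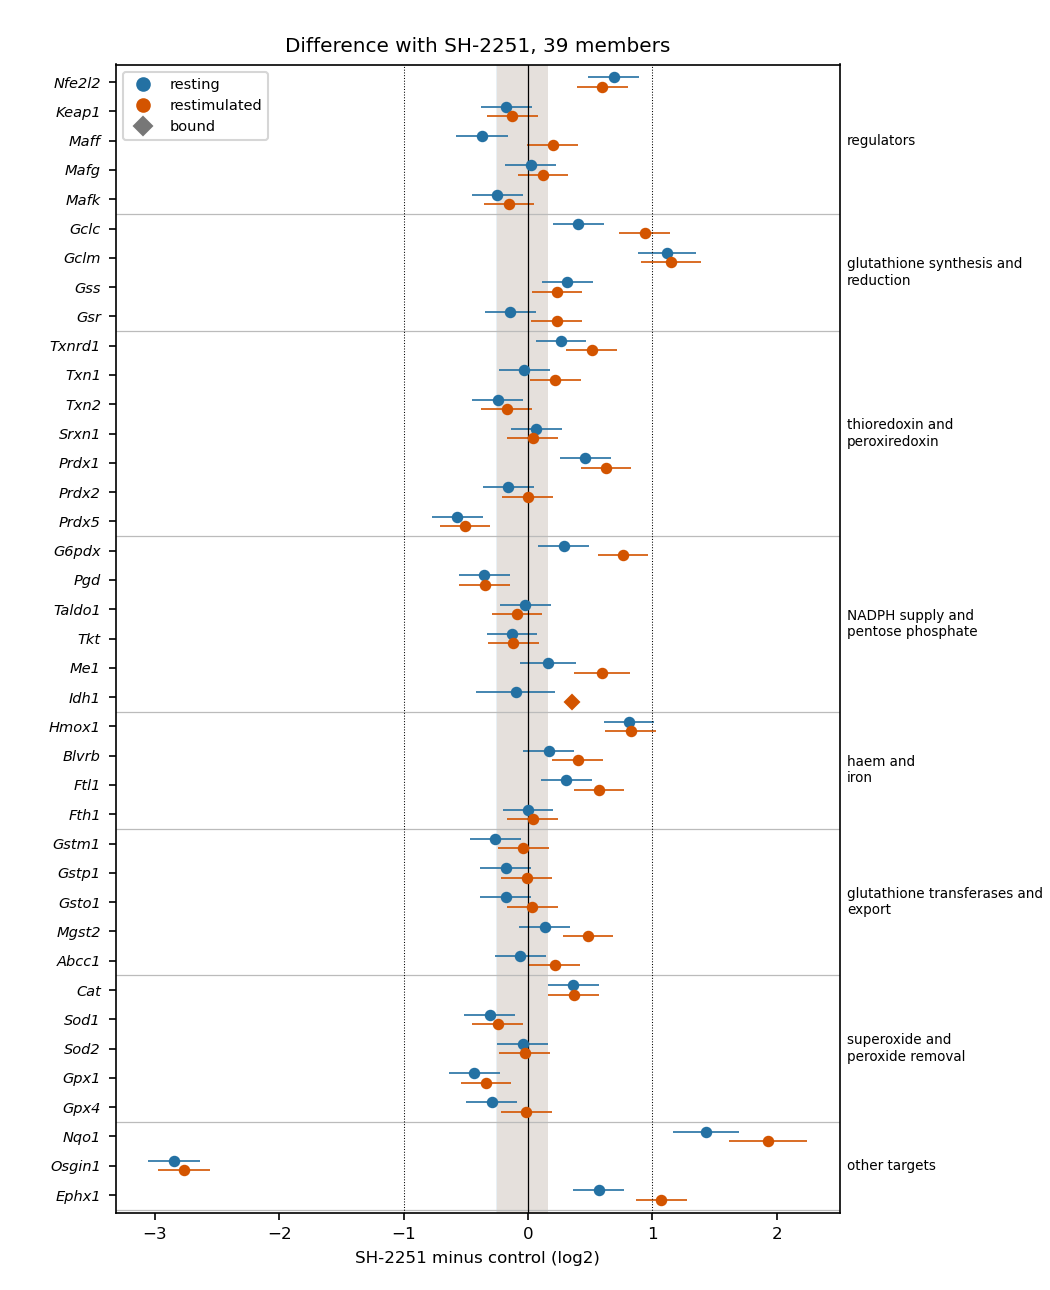
Difference with SH-2251 (SH-2251 minus control, log2) for the 39 measured genes of the set, ordered by role, in resting cells (blue) and restimulated cells (orange); bars are 1 technical SD, the diamond is a bound, dotted lines mark 2-fold and the shaded bands run from the lower to the upper quartile of all genes compared. Nqo1 and Gclm lie beyond 2-fold higher in both states, Ephx1 in restimulated cells, and Osgin1 lies far below every other gene of the set.

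Among the regulators, Nfe2l2 had a level of 1.47 in resting control cells, 2.16 in resting SH-2251 cells, 1.71 in restimulated control cells and 2.31 in restimulated SH-2251 cells. The difference with SH-2251 was 0.69 at rest and 0.60 after restimulation (technical SD 0.20), or 1.61-fold and 1.51-fold. Keap1, the adaptor that sends NRF2 for degradation, was at 3.92 and 3.75 in resting control and SH-2251 cells and at 3.61 and 3.49 in restimulated control and SH-2251 cells. Its differences with SH-2251 were -0.18 and -0.13, smaller than 1 technical SD. Of the small Maf partners, Mafg was at 2.12, 2.15, 2.43 and 2.56 in resting control, resting SH-2251, restimulated control and restimulated SH-2251 cells. Mafk was at -0.35, -0.60, 0.37 and 0.22 in the same order, a difference with SH-2251 of -0.25 at rest and -0.15 after restimulation. Maff was at -1.20 and -1.58 at rest and at 1.46 and 1.66 after restimulation, so that its difference with SH-2251 was -0.37 in one state and 0.20 in the other. The higher level with SH-2251 was thus seen for Nfe2l2, while the inhibitor and the partners differed by less than 2 technical SDs in either state.

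Glutathione is made by glutamate-cysteine ligase, whose catalytic subunit is Gclc and whose modifier subunit is Gclm, followed by glutathione synthetase (Gss), and its oxidized form is recycled by glutathione reductase (Gsr). Gclm was at -3.01 in resting control cells and -1.89 in resting SH-2251 cells, and at -3.19 in restimulated control cells and -2.04 in restimulated SH-2251 cells. Gclm was higher with SH-2251 by 1.12 (2.17-fold, technical SD 0.23) at rest and 1.15 (2.22-fold, technical SD 0.24) after restimulation. It ranked 230 from the highest of all genes compared at rest and 233 after restimulation. Gclc was at 1.10 and 1.51 in resting control and SH-2251 cells and at 1.43 and 2.36 in restimulated control and SH-2251 cells. The difference with SH-2251 was 0.41 (1.32-fold) at rest and 0.94 (1.92-fold) after restimulation, with a technical SD of 0.20. Gss, which adds glycine in the last step, differed by 0.32 and 0.23, and Gsr by -0.14 and 0.23, so that both subunits of the limiting enzyme lay further from 0 in restimulated cells than the later enzymes. The median of these 4 genes was 0.36 at rest and 0.59 after restimulation.

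Thioredoxin reductase (Txnrd1) uses NADPH to reduce thioredoxin (Txn1), which in turn reduces the peroxiredoxins, and sulfiredoxin (Srxn1) repairs peroxiredoxins that have been over-oxidized. Txnrd1 was at 3.52 and 3.78 in resting control and SH-2251 cells, and at 4.28 and 4.79 in restimulated control and SH-2251 cells, a difference with SH-2251 of 0.26 at rest and 0.51 after restimulation. Srxn1 differed by 0.07 and 0.04 with SH-2251, less than 1 technical SD, although it is a well known NRF2 target; its 2 dimmer probes gave values from -0.30 to -0.23. The cytosolic peroxidase Prdx1 was at 4.32 and 4.78 at rest and at 4.34 and 4.96 after restimulation in control and SH-2251 cells, higher by 0.46 and 0.63. Prdx5, a peroxidase of mitochondria and peroxisomes, was lower by 0.57 and 0.51. The 2 peroxiredoxins therefore lay on opposite sides of 0 in both states, each by more than 2 technical SDs. Prdx2, Txn1 and the mitochondrial thioredoxin Txn2 differed by between -0.24 and 0.22.

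Of the enzymes that supply NADPH, G6pdx, the first and limiting step of the pentose phosphate pathway, was at 3.56 and 3.85 in resting control and SH-2251 cells and at 3.07 and 3.84 in restimulated control and SH-2251 cells. Its difference with SH-2251 was 0.29 at rest and 0.76 (1.70-fold) after restimulation. Malic enzyme (Me1) was at -2.47, -2.31, -2.63 and -2.03 in resting control, resting SH-2251, restimulated control and restimulated SH-2251 cells, a difference of 0.16 at rest and 0.59 after restimulation (technical SDs 0.23 and 0.22). Pgd, the next enzyme after G6pdx and its lactonase, was lower by 0.35 in both states. The other Pgd probe gave -0.48 at rest and -0.20 after restimulation. Taldo1 and Tkt, which carry out the sugar rearrangements of the pathway, differed by between -0.13 and -0.02, within 1 technical SD, so the enzymes of the pathway did not lie together. The dimmer probe of Tkt gave -0.22 at rest and 0.23 after restimulation. Idh1 differed by -0.10 at rest, and after restimulation it was not well above background in control cells and was higher by at least 0.35 with SH-2251.

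Haem oxygenase 1 (Hmox1) opens the haem ring and releases iron, which ferritin (Ftl1 and Fth1) then stores. Hmox1 was at 1.77 and 2.59 in resting control and SH-2251 cells and at 2.94 and 3.77 in restimulated control and SH-2251 cells. It was higher with SH-2251 by 0.81 (1.76-fold) at rest and 0.83 (1.77-fold) after restimulation, and higher after restimulation in either culture. The ferritin light chain Ftl1 was at 5.42, 5.73, 5.67 and 6.24 in resting control, resting SH-2251, restimulated control and restimulated SH-2251 cells, a difference with SH-2251 of 0.31 and 0.57, whereas the heavy chain Fth1 differed by -0.00 and 0.04. Biliverdin reductase B (Blvrb) differed by 0.17 and 0.40. The haemoglobin gene Hba-a1, a red cell marker, was also higher with SH-2251, at -1.70 and -0.55 in resting control and SH-2251 cells and at -2.26 and -0.98 after restimulation, while Slc4a1, another red cell gene, was at -4.02 and -4.03 at rest and at -3.72 and -4.26 after restimulation, and Alas2 was detected in restimulated SH-2251 cells alone. The summed red cell list, mainly Hba-a1, was 0.437 and 0.782 at rest and 0.318 and 0.700 after restimulation. The part of such cells in the haem and iron values, or in those of Cat and Prdx1, was not tested.

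The glutathione transferases attach glutathione to reactive compounds. The soluble transferases Gstm1, Gstp1 and Gsto1 differed with SH-2251 by between -0.26 and -0.18 at rest and by between -0.04 and 0.04 after restimulation. The membrane-bound transferase Mgst2 was at 5.84 and 5.97 at rest and at 4.87 and 5.35 after restimulation in control and SH-2251 cells, a difference of 0.13 and 0.48. Abcc1, a pump that exports glutathione and its conjugates, differed by -0.06 and 0.22. Among the enzymes that remove superoxide and peroxide, catalase (Cat) was higher by 0.36 and 0.37, less than 2 technical SDs in either state. The superoxide dismutases Sod1 and Sod2 and the glutathione peroxidases Gpx1 and Gpx4 ranged from -0.43 to -0.01 over both states, with Gpx1 the lowest at -0.43 and -0.34, and Sod2 and, after restimulation, Gpx4 so near 0 that other scalings put them above it. The median of these 5 genes was -0.29 at rest and -0.03 after restimulation.

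Nqo1 was dim on the control arrays. Its level was -3.38 in resting control cells and -1.95 in resting SH-2251 cells, and -3.84 in restimulated control cells and -1.91 in restimulated SH-2251 cells. It was higher with SH-2251 by 1.43 (2.69-fold, technical SD 0.27) at rest and 1.93 (3.81-fold, technical SD 0.31) after restimulation. These differences ranked Nqo1 132 and 56 from the highest of all genes compared. Ephx1, a microsomal epoxide hydrolase, was at -0.83 and -0.26 in resting control and SH-2251 cells and at -1.65 and -0.57 in restimulated control and SH-2251 cells. It was higher with SH-2251 by 0.57 (1.48-fold) and 1.07 (2.10-fold). Its other probe gave 0.43 and 0.87, and with the mean of all probes the difference after restimulation was 0.97, which left 2 genes of the set at least 2-fold higher there. With normexp, another background correction, the differences of the dim genes shrank to 0.66 and 0.82 for Nqo1, 0.58 and 0.59 for Gclm and 0.44 and 0.74 for Ephx1 at rest and after restimulation, so that none of the set was 2-fold higher, and their direction was kept.

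Osgin1 was at 1.06 in resting control cells, -1.79 in resting SH-2251 cells, 0.57 in restimulated control cells and -2.19 in restimulated SH-2251 cells. The differences with SH-2251 were -2.84 (technical SD 0.21) and -2.76 (technical SD 0.21). Osgin1 thus kept 13.9% of the control signal at rest and 14.7% after restimulation. Among all genes compared it ranked 24 from the lowest at rest and 19 from the lowest after restimulation. The gene's other probe gave -2.63 and -2.26. Osgin1 and Nqo1, both known NRF2 targets, thus lay at opposite ends of the set.

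**Figure D2:**
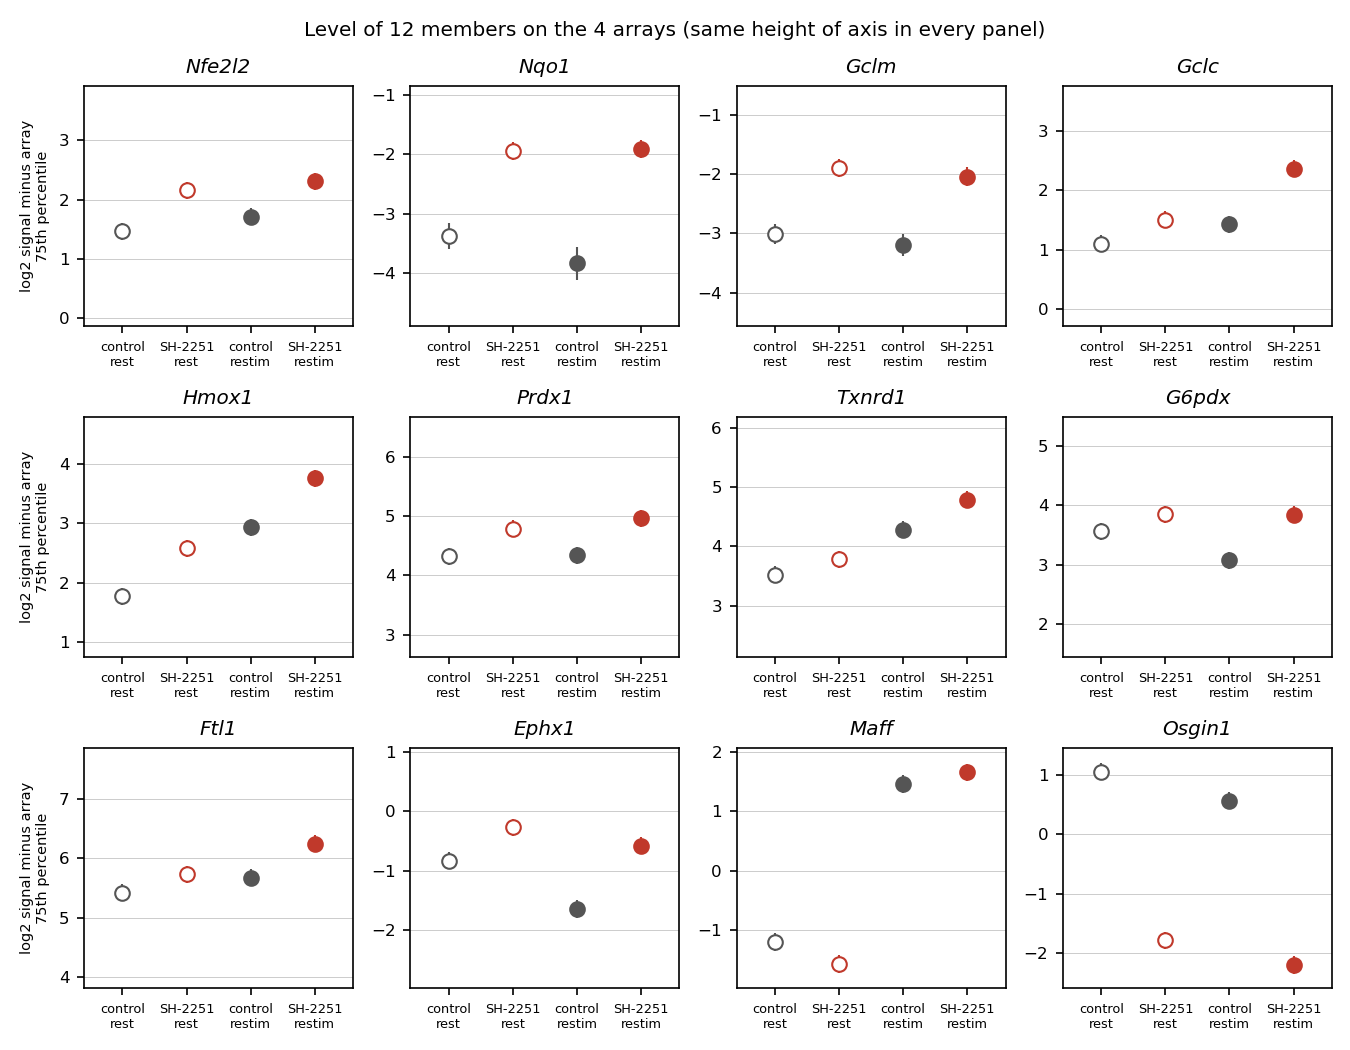
Level of 12 genes of the set on the 4 arrays (log2 intensity minus the 75th percentile of the array); open circles are resting and filled circles restimulated cells, grey is control and red SH-2251, bars are 1 technical SD, and every panel spans the same height. Osgin1 lies lower with SH-2251 in both states, and Maff lies higher after restimulation in both cultures. The other genes shown lie higher with SH-2251 in both states.

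Promoter windows, 250 bases before to 50 after the start, were found for 36 of the 41 genes, with 50 windows in all, in RefSeq sequence of build GRCm38.p6; Hmox1, Gclc, Gsr, Gsta4 and Abcc1 had no entry. The core of the antioxidant response element, TGACNNNGC, was searched on both strands. It was found in 13 of the 36 genes (36.1%). The share was 15.7% of the 14751 genes of the arrays with a window and 14.0% of all 27025 genes in the table. The wider TGANNNNGC was found in 22 of 36 (61.1%), beside 46.2% of the genes of the arrays and 45.0% of all genes. Counted by window, the core was in 26.0% of the windows of the set and 13.5% of those of genes on the arrays. The wider element was in 48.0% and 42.0% of them. As the genes were chosen by name for known function in this pathway, their share of the core is no independent result. The 12 measured genes with the core had a median difference with SH-2251 of 0.12 at rest and 0.35 after restimulation. The 23 measured genes without it had one of -0.10 and -0.00. The ranges overlapped, from -0.37 to 1.12 with the core and -2.84 to 1.43 without it at rest. After restimulation they were -0.35 to 1.15 and -2.76 to 1.93, and no test was made. The 6 windows below were chosen as examples after the values were seen. Of these, 4 are of genes that were higher with SH-2251 and hold the core (Gclm, Prdx1, G6pdx and Nfe2l2). Txnrd1 and Me1, not shown, also hold it. Srxn1 holds the core too and was higher after restimulation. Osgin1, the gene at the low end, lacks the core but holds 1 match to the wider TGANNNNGC. Each is written 5′ to 3′ along the gene, with the core in capitals in either orientation and matches to the wider element alone left unmarked.
Gclm (chr3:122245307-122245606, plus strand): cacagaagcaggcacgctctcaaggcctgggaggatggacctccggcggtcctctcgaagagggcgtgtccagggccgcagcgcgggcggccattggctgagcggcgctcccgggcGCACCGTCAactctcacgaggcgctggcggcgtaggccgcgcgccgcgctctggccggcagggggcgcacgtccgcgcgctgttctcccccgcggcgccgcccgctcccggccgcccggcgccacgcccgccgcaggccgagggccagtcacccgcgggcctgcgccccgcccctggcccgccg
Prdx1 (chr4:116685349-116685648, plus strand): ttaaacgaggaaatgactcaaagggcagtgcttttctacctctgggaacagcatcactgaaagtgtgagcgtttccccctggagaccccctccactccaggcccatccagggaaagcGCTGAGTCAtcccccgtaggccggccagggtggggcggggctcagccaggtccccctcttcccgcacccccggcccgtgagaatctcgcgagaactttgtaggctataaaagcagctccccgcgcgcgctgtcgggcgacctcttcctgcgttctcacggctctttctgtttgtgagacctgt
G6pdx (chrX:74428831-74429130, minus strand): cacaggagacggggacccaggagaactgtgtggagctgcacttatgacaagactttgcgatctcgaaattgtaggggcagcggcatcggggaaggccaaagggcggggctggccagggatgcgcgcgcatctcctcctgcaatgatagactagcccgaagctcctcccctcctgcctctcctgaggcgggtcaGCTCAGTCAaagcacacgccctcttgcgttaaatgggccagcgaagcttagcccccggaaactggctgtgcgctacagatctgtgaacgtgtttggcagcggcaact
Nfe2l2 (chr2:75704614-75704913, minus strand): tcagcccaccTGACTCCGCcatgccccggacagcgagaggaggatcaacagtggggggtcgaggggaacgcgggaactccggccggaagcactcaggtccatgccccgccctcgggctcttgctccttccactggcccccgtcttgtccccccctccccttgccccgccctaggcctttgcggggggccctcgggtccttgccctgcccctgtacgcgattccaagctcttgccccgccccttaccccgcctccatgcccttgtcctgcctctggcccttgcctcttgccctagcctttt
Srxn1 (chr2:152105274-152105573, plus strand): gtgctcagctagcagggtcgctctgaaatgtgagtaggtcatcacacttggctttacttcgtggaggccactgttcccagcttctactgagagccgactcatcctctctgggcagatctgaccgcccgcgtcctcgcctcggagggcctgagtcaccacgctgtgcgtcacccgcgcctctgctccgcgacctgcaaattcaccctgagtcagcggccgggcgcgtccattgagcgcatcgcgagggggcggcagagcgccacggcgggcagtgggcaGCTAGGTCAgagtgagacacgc
Osgin1 (chr8:119436897-119437196, plus strand): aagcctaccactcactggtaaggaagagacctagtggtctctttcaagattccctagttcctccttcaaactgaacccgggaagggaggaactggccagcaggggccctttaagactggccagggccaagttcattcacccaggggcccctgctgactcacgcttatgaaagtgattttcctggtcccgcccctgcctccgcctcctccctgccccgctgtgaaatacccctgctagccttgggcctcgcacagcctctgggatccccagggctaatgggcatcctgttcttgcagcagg

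The capitals read TGACGGTGC in Gclm, TGACTCAGC in Prdx1, TGACTGAGC in G6pdx, TGACTCCGC in Nfe2l2 and TGACCTAGC in Srxn1, as written on the strand that carries the match. The match of Prdx1, like that of Me1, also contains TGACTCA, the site of the AP-1 factors that T cell receptor signals induce. These letters therefore do not tell the elements apart. TGACTCA also occurs, in either orientation, in the windows of Srxn1 and Osgin1 printed above, outside any match to the core. In Osgin1 it lies within the match to the wider element. The matches lay 134, 133, 57 and 240 bases before the start in Gclm, Prdx1, G6pdx and Nfe2l2, and 28 bases after it in Srxn1. The core was also present in Maff, Mafg, Mafk, Txnrd1, Pgd, Me1, Mgst1 and Sod1, so it was found in genes of the set on either side of 0. Nqo1, Ephx1 and Osgin1, each beyond 2-fold in at least 1 state, held no match to the core, which says only that these letters are not in the windows searched.

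After restimulation without SH-2251, 4 genes of the set were at least 2-fold higher, Maff, Srxn1, Abcc1 and Hmox1, beside 7.24% of the 12759 genes compared, and none was at least 2-fold lower, beside 7.34%. Maff was higher by 2.66 (6.34-fold), ranking 117 from the highest of all genes compared. Srxn1 was at 1.38 in resting control cells, 1.44 in resting SH-2251 cells, 4.17 in restimulated control cells and 4.21 in restimulated SH-2251 cells. It was higher after restimulation by 2.80 (6.95-fold) without SH-2251, with a technical SD of 0.20, and ranked 99, and its other probes gave 3.27 and 3.32. Both genes, Maff and Srxn1, were higher after restimulation in either culture. Abcc1 was at 3.21 and 3.15 in resting control and SH-2251 cells and at 4.55 and 4.77 in restimulated control and SH-2251 cells, and was higher by 1.34 (2.54-fold) in control cells. Hmox1 was higher by 1.16 (2.24-fold), so that of these 4 genes it alone was also more than 2 technical SDs higher with SH-2251. The genes nearest to 2-fold lower were Mgst2 at -0.96, Idh1 with a bound of -0.88, Gss at -0.83 and Ephx1 at -0.82, and at 1.5-fold 6 genes were higher (15.1% of all genes) and 5 lower (18.5% of all genes). In control cells 16 of 39 genes were above 0 after restimulation (45.2% of all genes), 8 by more than 2 technical SDs (18.8% of all genes), and 6 were that far below (24.2% of all genes).

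In SH-2251 cells, 5 genes of the set were at least 2-fold higher after restimulation, the same 4 and Txnrd1, beside 7.09% of the 12615 genes compared, and none was at least 2-fold lower, beside 6.98%. The differences were 3.24 for Maff (9.42-fold), 2.77 for Srxn1 (6.80-fold), 1.62 for Abcc1 (3.07-fold), 1.18 for Hmox1 (2.27-fold) and 1.00 for Txnrd1 (2.01-fold), which lies at the limit and was 0.76 in control cells. Gclc was higher by 0.86 after restimulation in SH-2251 cells and by 0.33, less than 2 technical SDs, in control cells. Gss and Cat were lower after restimulation in both cultures, Gss by 0.83 and 0.91 and Cat by 0.67 and 0.66. Gclm differed by -0.18 and -0.15, each within 1 technical SD of 0. At 1.5-fold 8 genes were higher (14.8% of all genes) and 3 lower (18.9% of all genes), and 23 of 39 genes were above 0 (46.4% of all genes), 13 by more than 2 technical SDs (18.4% of all genes), with 3 that far below (24.6% of all genes). The median of the set was -0.105 without SH-2251 (-0.064 for all genes) and 0.047 with it (-0.051 for all genes).

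**Figure D3:**
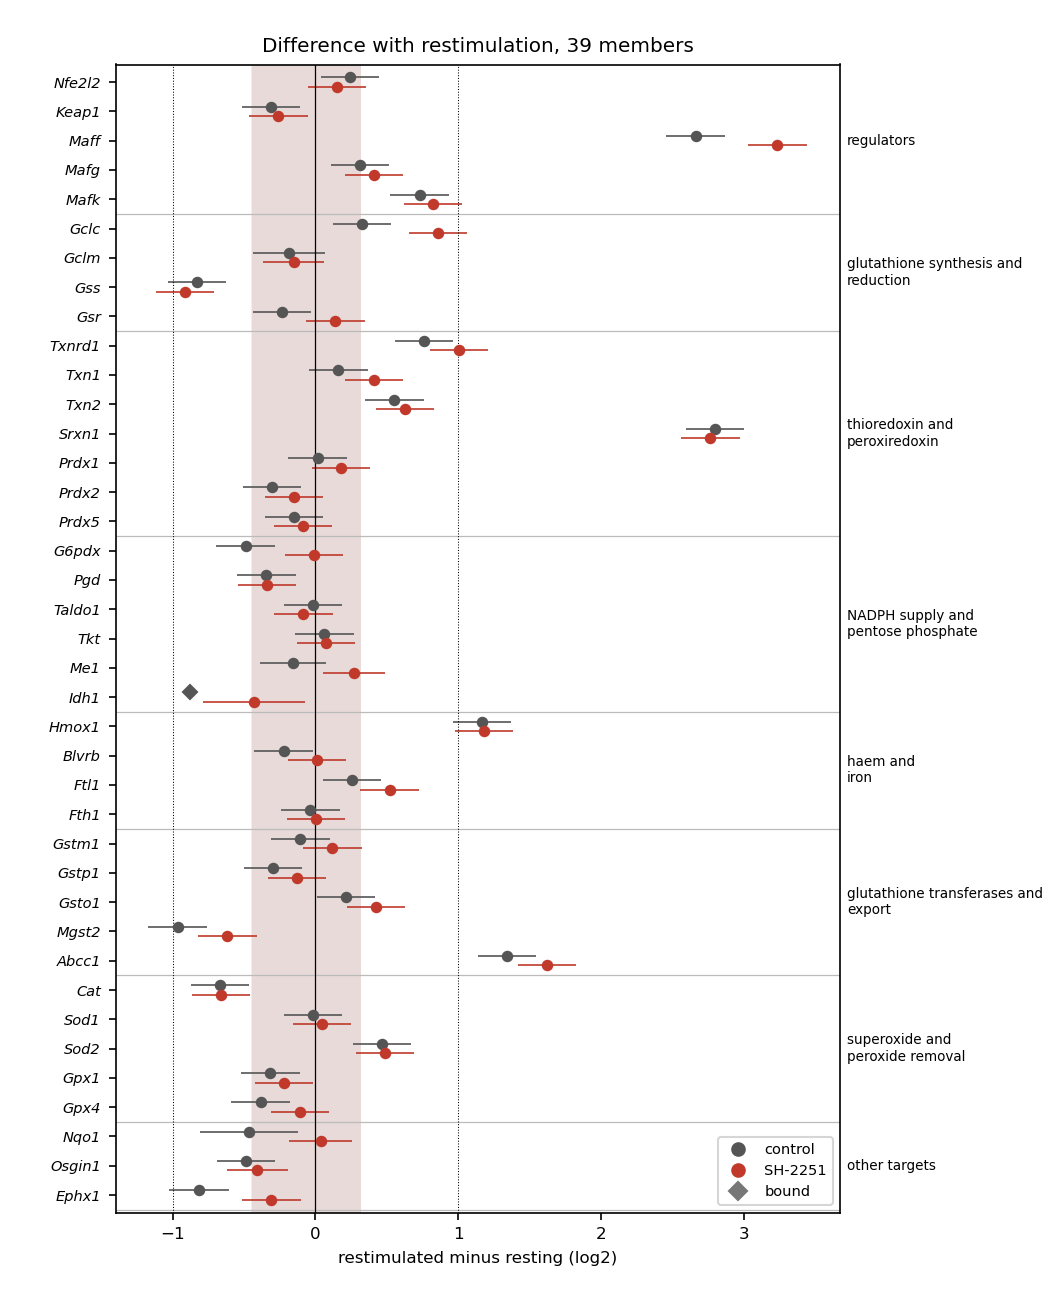
Difference with restimulation (restimulated minus resting, log2) for the 39 measured genes of the set, ordered by role, in control cells (grey) and SH-2251 cells (red); bars are 1 technical SD, the diamond is a bound, dotted lines mark 2-fold and the shaded bands run from the lower to the upper quartile of all genes compared. Maff and Srxn1 stand furthest right in both cultures, and no gene of the set is below -1.

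For most of the set the signed difference with SH-2251 lay higher in restimulated than in resting cells. This shift (the difference in restimulated minus that in resting cells) was above 0 for 35 of 39 genes, beside 52.2% of the 12150 genes with a value in both, and its median was 0.154 beside 0.011 for all genes and 0.014 for the genes brighter than the 75th percentile. It includes genes lower with SH-2251 that lay nearer to 0 after restimulation, such as Gpx4 at -0.29 and -0.01, and by size the difference was larger after restimulation for 20 of the 39 genes. Under other settings the count above 0 was between 29 and 35 and the median between 0.098 and 0.164. No single gene carried this, since the values ran from -0.09 for Nfe2l2 to 0.57 for Maff, with 4 genes at 0.5 or more (5.05% of all genes), Maff, Gclc at 0.53, Ephx1 at 0.51 and Nqo1 at 0.50, and none at -0.5 or less (4.49% of all genes). The technical SD of such a value was 0.29 for Maff, Gclc and Ephx1 and 0.41 for Nqo1, so each of these lay within 2 technical SDs of 0. All 39 values rest on the same 4 arrays, and the difference between states was not tested. For Hmox1 and Gclm the difference with SH-2251 was nearly the same in the 2 states, at 0.02 and 0.03.

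**Figure D4:**
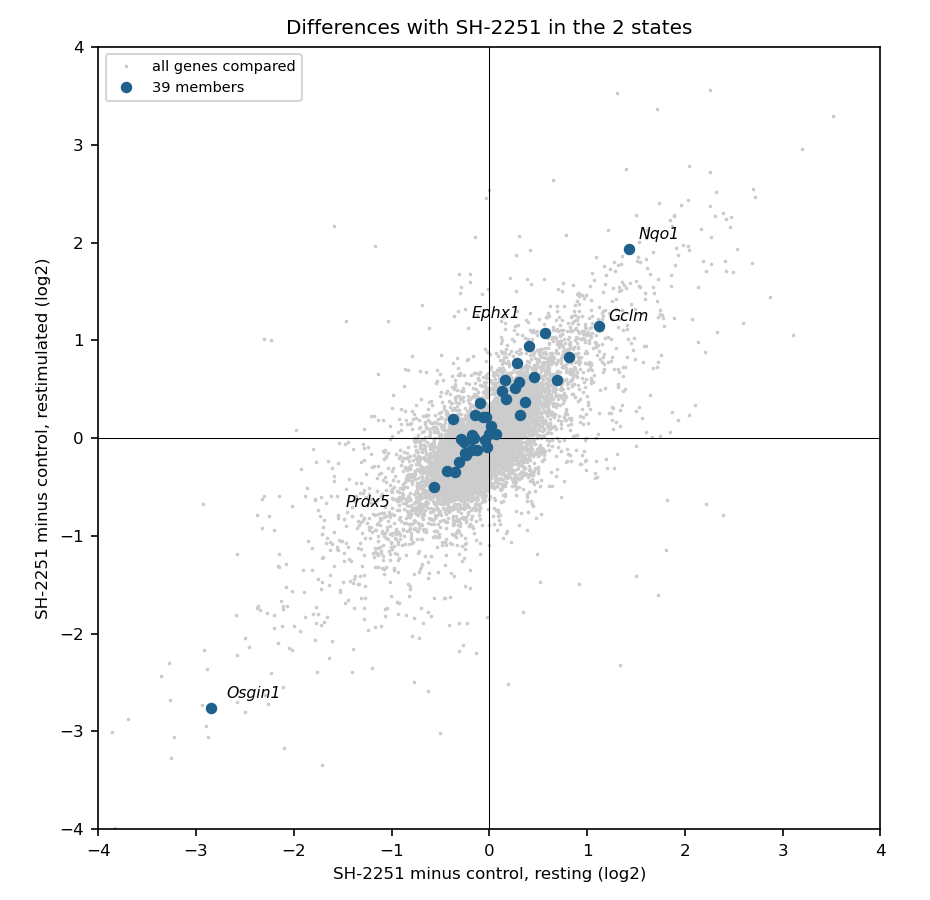
Difference with SH-2251 (SH-2251 minus control, log2) in resting cells on the horizontal and in restimulated cells on the vertical axis, for the 39 measured genes of the set (blue) and all genes compared in both states (grey, shown between -4 and 4). Nqo1 and Gclm sit furthest to the upper right, and Osgin1 lies at the lower left, apart from the rest of the set. Ephx1, Hmox1, Nfe2l2 and Gclc lie between Gclm and the genes around 0.

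A further list of 82 genes of the same pathways that are not in the set was read in the same way, and 77 were named, 70 measured and 69 compared with SH-2251. Its median difference with SH-2251 was -0.105 at rest (-0.055 for all genes) and -0.027 after restimulation (-0.063 for all genes). Ptgr1, a reductase of electrophilic lipids, was higher by 1.05 and 1.08 in the 2 states. Cbr3, a carbonyl reductase, was at -2.53 and -2.68 in resting control and SH-2251 cells and at -1.58 and 0.47 in restimulated control and SH-2251 cells, so the difference of 2.05 was seen after restimulation and was -0.15 at rest. Gpx8, a peroxidase of the endoplasmic reticulum, was lower by 2.92 and 2.16, and Akr1b8, an aldo-keto reductase, by 1.08 and 1.25. No other gene of the list was beyond 2-fold with SH-2251, so that 1 was higher and 2 were lower at rest (2.26% and 2.90% of all genes) and 2 were higher and 2 lower after restimulation (2.65% and 2.78% of all genes).

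After restimulation of control cells 8 genes of that list were at least 2-fold higher and 3 lower, of 69 compared (7.24% and 7.34% of all genes). Cystine uptake was among them, with Slc3a2 higher by 1.55 and its transporter partner Slc7a11 by at least 2.38, not being well above background at rest. Chac1 and Ggct, which degrade glutathione and gamma-glutamyl peptides, were higher by 2.67 and 1.58. The others were Nfe2l1 (1.53) and Bach1 (1.03), a relative of NRF2 and a repressor that competes with it, Sesn2 (1.36) and Akr1b8 (1.08). Those at least 2-fold lower were Txnip, the thioredoxin inhibitor, at -1.82, Gstt3 at -1.05 and the haem-making enzyme Fech at -1.08. In SH-2251 cells 6 were higher and 2 lower of 70 compared (7.09% and 6.98% of all genes). There Slc7a11 (at least 2.21), Slc3a2 (1.47), Chac1 (1.74), Ggct (1.98), Gpx8 (1.18) and Cbr3 (3.15) were at least 2-fold higher after restimulation and Txnip (-1.90) and Fech (-1.13) at least 2-fold lower.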

How the data were processed

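Th2 cells of 4 groups, defined by their labels, were hybridised to 1 single-dye Agilent array each. The authors deposited scanner intensities, already corrected for background by Feature Extraction (10.7 per the labels, 10.7.3.1 per the file headers), and a table of log2 values, of which 99.6% to 99.7% lay within 0.01 of the values computed here. Here the log2 intensity minus the 75th percentile of each array was used. Control spots and 77 to 106 outlier spots per array were dropped, and repeat spots of 1 probe were averaged. Of 41174 probes, 27198 were named through their RefSeq accession and a RefSeq table (GRCm38.p6), giving 18539 genes; the arrays were designed on mm9, so no probe coordinates are given. A gene was represented by its brightest probe.

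Genes detected (well above background) on either array of a pair were compared. Where only 1 array detected a gene, the difference is a bound, taken against the other array's dimmest detected signal or, if higher, the gene's own value there. Differences are SH-2251 minus control and restimulated minus resting, with no test. The genes of the set, the further lists and the motifs were chosen with earlier results of these data known. Genes of the set at least 2-fold apart in any comparison, and Nfe2l2, Keap1 and the small Maf genes, are given on every array. The values of other genes of the set given on every array were chosen after they were seen. Normexp (limma 3.58.1, offset 50) was run on median spot signals, since mean spot signals were not in the columns used. The calculations were tested on simulated data in which every planted difference was larger than 2-fold and both arrays detected the gene. That test does not cover smaller differences, bounds or background correction. Other alternatives were median centring, a percentile over detected probes, quantile normalization, the deposited log2 values, other filters, the mean of all probes and a 1.5-fold limit. Python 3.11.15 with numpy 2.4.6 and pandas 2.3.3, and R 4.3.3, were used.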

Additional observations from a re-analysis of the deposited data

How the results depend on the processing

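No paired analysis was possible because the samples carry no replicate numbers (1 array per group), and for the same reason no array could be left out. Of 156 differences (39 genes in 4 comparisons), 25 lay on both sides of 0 over the alternatives, the largest of them 0.18 as reported, so no gene at least 1.5-fold apart turned its direction. With normexp, the count at least 2-fold higher with SH-2251 was 0 in resting and 0 in restimulated cells, with or without spots of uneven local background. Its fitted background mean was -151.7 on the resting SH-2251 array and 7.42 after 12 such spots were left out, against 7.36 to 8.23 on the others. At 1.5-fold the counts higher were 4 and 9 with SH-2251 and 8 after restimulation of SH-2251 cells, and those lower were 5 after restimulation of control cells and 3 after that of SH-2251 cells. The count at least 2-fold lower after restimulation of control cells, 0 as reported, was 1 with the percentile over detected probes, with quantile normalization, with both forms of normexp and with no filter and no bound. The alternatives for the difference between the states were chosen after seeing the data. For dim genes such as Nqo1 and Gclm the fold depends on the background taken off.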
